A study of Neurospora crassa with 6 samples.

Results

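The conidiation genes of the filamentous fungus Neurospora crassa were followed in mycelium that lacked chromatin assembly factor subunit cac-1, with and without the further loss of suz-12. They were the rows of the count table named con- and a number, together with the hydrophobin gene eas and the regulators fl, acon-2, acon-3, csp-1, csp-2 and rca-1. The rule found 11 genes among the 9757 of the table. By their names alone, 5 were grouped as spore products (con-6, con-8, con-10, con-13 and eas) and 6 as regulators. All 11 passed the filter on low counts. The compared strains were a cac-1 suz-12 double knockout and a cac-1 knockout, with 3 RNA sequencing libraries each, so that loss of cac-1 was common to both. Wild-type libraries were not analysed here. Per the labels, mycelium was collected after a night of growth in Vogel's minimal medium containing 1.5% sucrose, and the lighting of the cultures, the ages of the strains and their number of isolates are not given. Nothing in the labels says that the libraries of a strain came from separate cultures, so the p-values measure the spread between these libraries, which may be technical.

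Conidiation is the asexual spore program of Neurospora, in which aerial hyphae bud into chains of orange conidia. Starvation, desiccation, light and the circadian clock promote it, and submerged mycelium normally makes few spores. The transcription factor fl is its major regulator, acon-2 and acon-3 act at successive budding steps, and csp-1 and csp-2 are required for the finished spores to separate. The con genes were isolated as transcripts that accumulate when conidia form. The gene suz-12 encodes a subunit of Polycomb repressive complex 2, which methylates histone H3 in facultative heterochromatin, and cac-1 encodes the large subunit of a histone chaperone that acts behind the replication fork.

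The libraries held between 7989915 and 28327383 counts, with the smallest being cac-1 replicate 1. No count fell on cac-1 in any library. Levels of mRNA are given as CPM (library-scaled counts, TMM factors included), and fold changes are those of the double knockout over the single knockout. The locus NCU05460, taken as suz-12 from general knowledge since the table does not name it, kept 2.39 to 3.26 CPM in the double knockout, against 7.36 to 9.13 CPM in the single knockout. A gene was called at a Benjamini-Hochberg adjusted p under 0.05 in edgeR's quasi-likelihood test over 9148 genes. Of 6 listed mycelial markers bni-1 was not found by name. The markers hex-1, so, cot-1, chs-1 and ham-2 were all present. Their summed level was 2741 to 3199 CPM in the double and 1884 to 2141 CPM in the single knockout. Most of this sum was hex-1, which was called higher (log2 fold change 0.64, edgeR adjusted p = 0.00652). The genes so and cot-1 were called lower (-0.67 and -0.54, edgeR adjusted p = 0.0130 and 0.0106), and the list median was -0.14. The strains also differed at the mating-type locus. There matA-1 stood at 53.2 ± 5.90 CPM in the double knockout and at 0 counts in the single knockout (n = 3 each). The part of this difference in the results was not tested. It went with the loss of suz-12 in every library, so the parts of both cannot be told apart in any fold change given here. Fewer conidiating cells and less RNA per cell cannot be told apart in such bulk libraries.

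The spore products moved in opposite directions, with con-6 higher and con-8 lower in the double knockout, and no regulator was called. In all, 2 of the 11 genes were called, 1 in each direction, against 28.1% of all genes tested. Higher calls made up 16.1% and lower calls 11.9% of all genes tested. For 3 of the 11 (con-6, con-8 and acon-3) the ranges of the strains were apart, against 42.3% of all genes tested.

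The gene con-6 (NCU08769, linkage group III, 5205351 to 5205743) encodes a small protein that accumulates in conidia and is lost when they germinate. It stood at 82.5, 53.5 and 50.9 CPM in the double knockout, against 20.9, 17.7 and 18.8 CPM in the cac-1 knockout. All 3 double-knockout libraries lay above all 3 single-knockout libraries, and replicate 1 was the highest of the double knockout. The mean was 62.3 ± 17.5 CPM in the double and 19.1 ± 1.60 CPM in the single knockout (SD, n = 3 each). The level rose 3.27-fold, which is 1.71 on the log2 scale with an SE of 0.190, and the edgeR adjusted p was 3.72e-06. Over every alternative setting the log2 change lay between 1.46 and 1.84 and stayed called.

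The gene con-8 (NCU09235, linkage group I, 9464340 to 9465112), a conidiation transcript whose product has no well-established function, moved the other way. Its level was 53.6, 47.1 and 51.9 CPM in the double knockout, against 174.9, 128 and 227 CPM in the cac-1 knockout. The double-knockout libraries agreed closely and all lay below the lowest single-knockout library, which was replicate 2. The mean fell to 50.9 ± 3.36 CPM in the double knockout, against 176.6 ± 49.5 CPM in the single knockout (SD, n = 3 each). This was 3.47-fold lower, or -1.80 on the log2 scale with an SE of 0.191, at an edgeR adjusted p of 2.33e-06. Over the alternatives it ran from -1.99 to -1.58 and stayed called.

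The gene con-10 (NCU07325, linkage group IV, 4365191 to 4365595) encodes another small spore protein, and its transcript is also induced by light. It had 18.9, 23.6 and 26.3 CPM in the double knockout, against 39.2, 25.4 and 70.7 CPM in the cac-1 knockout. The groups overlapped, because single-knockout replicate 2 lay below the highest double-knockout library, and single-knockout replicate 3 was far above the other two. A log2 fold change of -0.98 (95% interval -1.73 to -0.23) was estimated, and at an edgeR adjusted p of 0.0550 the gene was not called. Over the alternatives the adjusted p ran from 7.95e-04 without single-knockout replicate 2 to 0.159 without double-knockout replicate 1, and DESeq2 called the gene (adjusted p = 0.00257). Without single-knockout replicate 3 the change was -0.49 (edgeR adjusted p = 0.0820).

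The hydrophobin gene eas (NCU08457, linkage group II, 3572043 to 3572463), also known as ccg-2, encodes the rodlet protein that makes conidia water-repellent. Its levels were 8.91, 11.2 and 7.11 CPM in the double knockout, against 15.7, 11.2 and 13.02 CPM in the single knockout. Double-knockout replicate 2 met single-knockout replicate 2, and the other double-knockout libraries were lower. The estimated log2 change of -0.53 (95% interval -0.98 to -0.074) was not called at an edgeR adjusted p of 0.0770. Over the alternatives this p was lowest on library totals, at 0.0274, and highest with thinned counts, at 0.271.

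The gene con-13 (NCU07324, linkage group IV, 4367319 to 4368460), another conidiation transcript, lay close to the detection limit. Just 12, 12 and 8 counts were found in the double knockout, against 2, 13 and 26 counts in the cac-1 knockout. The groups overlapped, and the single knockout held both the lowest and the highest library. Its log2 fold change of -0.54 (95% interval -1.79 to 0.71, edgeR adjusted p = 0.533) turned to 0.26 without single-knockout replicate 3. A direction was not detectable at this depth.

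**Figure D1:**
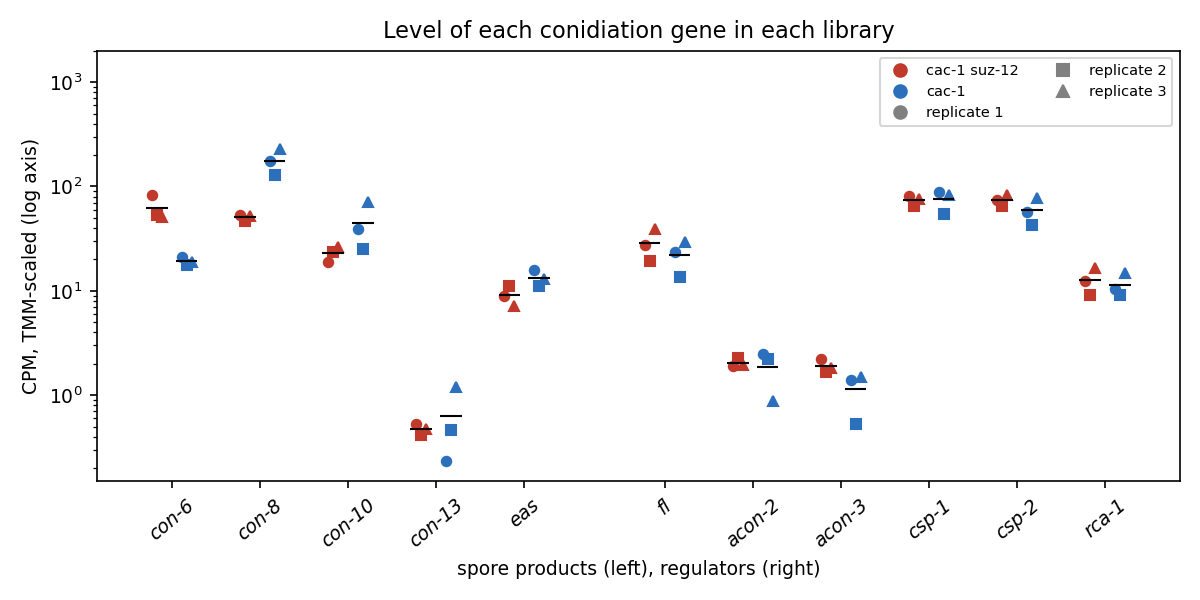
TMM-scaled CPM (log axis) of the 11 conidiation genes in each library, with cac-1 suz-12 in red at the left and cac-1 in blue at the right of each gene. Marker shape gives the replicate number and the black bar the mean of 3 libraries. The strains separate without overlap at con-6, con-8 and acon-3. The single-knockout points of con-13 run from 0.234 to 1.205 CPM, and those of con-10, acon-2 and acon-3 are also widely spread.

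Among the regulators 5 of the 6 log2 fold changes lay above 0, and the share above 0 over all genes was not counted. None was called, against 16.1% higher and 11.9% lower among all genes tested, which at 6 genes is near those shares. None had an unadjusted edgeR p under 0.05, and the share of all genes under it was not counted. By DESeq2 none was called either. The median of the 6 log2 fold changes was 0.26. That of the 5 spore products was -0.54, and that of all genes tested -8.95e-04.

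The master regulator fl (NCU08726, linkage group II, 3806330 to 3809040) encodes a zinc cluster transcription factor. It had 27.2, 19.4 and 39.0 CPM in the double knockout, against 23.4, 13.7 and 29.2 CPM in the cac-1 knockout. In both strains replicate 2 was the lowest and replicate 3 the highest, and the ranges overlapped. Its log2 fold change was 0.37 (95% interval -0.28 to 1.02, edgeR adjusted p = 0.394), so that neither no difference nor a 2-fold rise lay outside the interval.

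The budding regulators acon-2 and acon-3 were both scarce. The gene acon-3 (NCU07617, linkage group IV, 271905 to 274263) encodes a relative of the Aspergillus nidulans developmental protein MedA. It stood at 2.22, 1.68 and 1.84 CPM in the double knockout, against 1.41, 0.533 and 1.48 CPM in the single knockout. The double-knockout libraries all lay above the single-knockout ones, but the gap was small beside the spread of the single knockout. Its log2 fold change of 0.81 (95% interval -0.11 to 1.73) was not called (edgeR adjusted p of 0.178, and from 0.100 to 0.559 over the alternatives), and without single-knockout replicate 2 it was 0.39. The gene acon-2 (NCU00478, linkage group III, 3993652 to 3996220) had 1.91, 2.26 and 1.96 CPM in the double knockout, against 2.46, 2.24 and 0.880 CPM in the single knockout. Its groups overlapped, with single-knockout replicate 3 the lowest library, and its log2 fold change of 0.18 (95% interval -0.65 to 1.01, edgeR adjusted p = 0.773) was -0.018 on library totals, a scaling that placed the median of all genes at -0.20.

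The separation regulators were the most abundant of the 6. The gene csp-1 (NCU02713, linkage group I, 3285126 to 3285989) encodes a zinc finger repressor that is driven by the clock and by light. It had 80.3, 64.8 and 75.4 CPM in the double knockout, against 88.0, 54.3 and 83.3 CPM in the single knockout. The double-knockout range lay inside that of the single knockout. Its log2 fold change was -0.029 (95% interval -0.41 to 0.35, edgeR adjusted p = 0.922). A rise or fall of 2-fold therefore lay outside the interval for csp-1. The gene csp-2 (NCU06095, linkage group VII, 1812913 to 1815792) encodes a grainyhead-like transcription factor. It had 74.9, 64.8 and 83.2 CPM in the double knockout, against 57.4, 42.4 and 77.1 CPM in the single knockout. Single-knockout replicate 3 stood among the double-knockout libraries. The log2 fold change of 0.33 (95% interval -0.080 to 0.75, edgeR adjusted p = 0.220) passed the threshold only without that library, where it was 0.57 (edgeR adjusted p = 0.0280).

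The gene rca-1 (NCU01312, linkage group V, 3617620 to 3618594) encodes a Myb-type protein related to the Aspergillus nidulans conidiation activator FlbD. Its levels were 12.4, 9.15 and 16.4 CPM in the double knockout, against 10.4, 9.21 and 14.7 CPM in the single knockout. The groups overlapped almost wholly. For rca-1 the log2 fold change was 0.13 (95% interval -0.37 to 0.63, edgeR adjusted p = 0.728) and -0.077 on library totals.

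**Figure D2:**
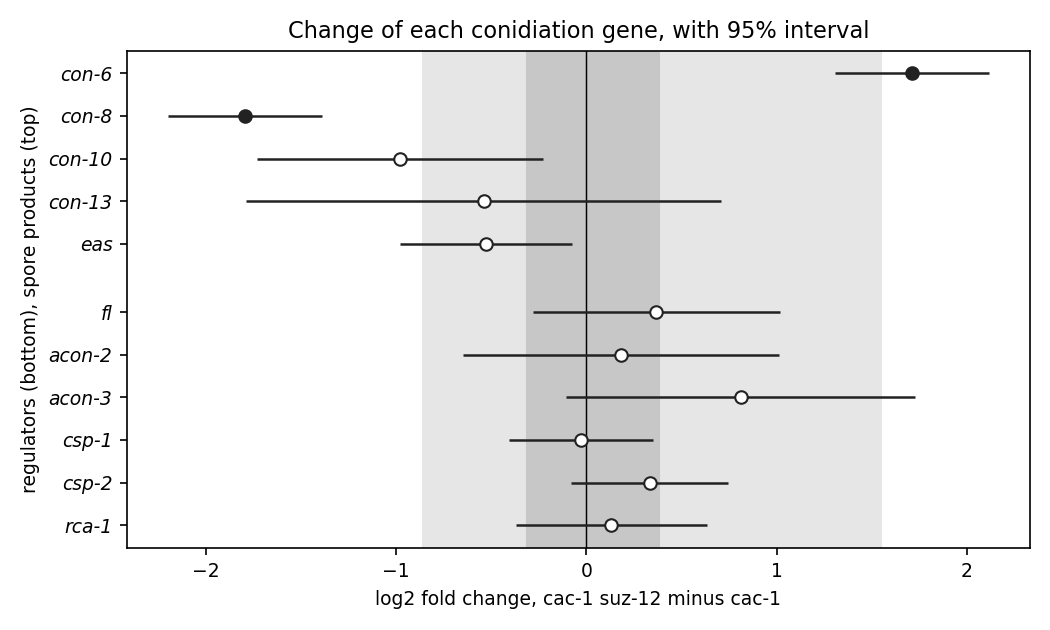
Log2 fold change of the double over the single knockout for each conidiation gene, with the 95% interval from the edgeR fit. Filled points passed an adjusted p of 0.05 and open points did not. The dark grey band holds the middle of all genes tested (25th to 75th percentile, -0.31 to 0.38) and the light band the 5th to 95th percentile (-0.86 to 1.55). The points of con-6 and con-8 lie beyond the light band on opposite sides, that of con-10 lies just beyond it, and the 6 regulators lie inside it.

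The balance among the spore products changed with these shifts. For comparisons between genes, levels were divided by the counted length of each gene, giving CPM per kb. In the double knockout con-6 was the highest of the 11 genes, with 221 ± 62.1 CPM per kb (SD, n = 3), and every library stood above every library of the next gene. It was followed by con-8 (95.8 ± 6.32), con-10 (87.8 ± 14.3) and csp-1 (85.1 ± 9.13 CPM per kb), whose neighbours in the order overlapped. In the cac-1 knockout con-8 came first with 333 ± 93.2 CPM per kb, followed by con-10 (173 ± 88.9), csp-1 (87.0 ± 21.1) and con-6 (67.8 ± 5.68 CPM per kb), each overlapping the next. In both strains rca-1 and fl lay near the middle of all genes, at the 52nd and 50th percentile in the double and the 51st and 46th percentile in the single knockout. The genes acon-2, acon-3 and con-13 lay below the 10th percentile in both strains.

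Within each library, con-6 made up 59.3%, 47.0% and 45.0% of the summed level per kb of the 5 spore products in the double knockout, against 12.3%, 14.4% and 8.26% in the cac-1 knockout. The share of con-8 was 20.5%, 22.0% and 24.4% in the double knockout, against 54.7%, 55.3% and 53.0% in the single knockout. The ratio of con-6 to con-8, which does not depend on how libraries are scaled, was 2.90, 2.14 and 1.85 in the double knockout, against 0.224, 0.260 and 0.156 in the single knockout. No library of a strain came near those of the other, and these genes were singled out after their values were seen. The summed level of the 5 spore products was 433 ± 52.6 CPM per kb in the double and 615 ± 185 CPM per kb in the single knockout (SD, n = 3 each), and that of the 6 regulators was 143 ± 18.8 CPM per kb in the double and 134 ± 32.4 CPM per kb in the single knockout. The sums were not tested.

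**Figure D3:**
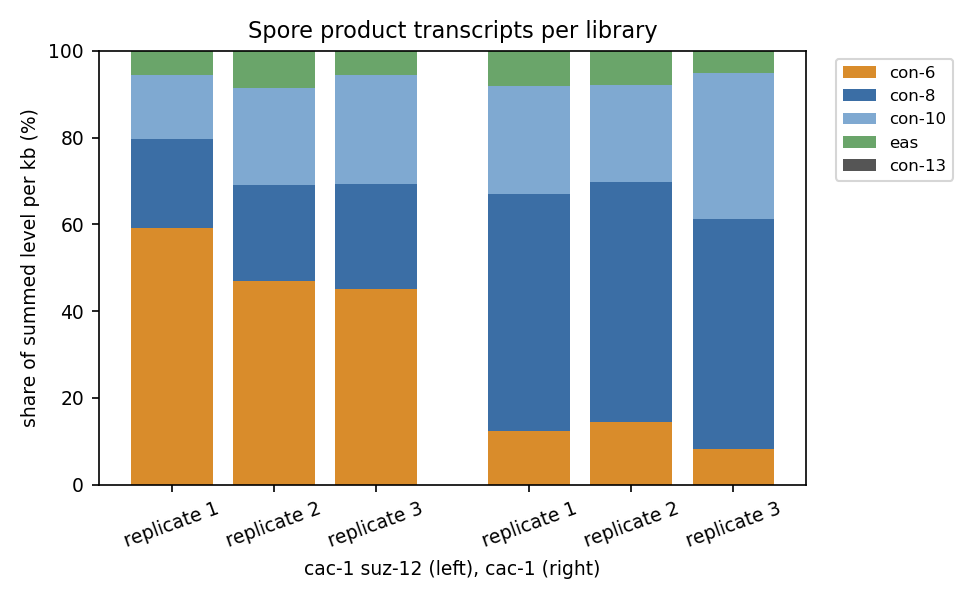
Share of each spore product (%) in the summed level per kb of con-6, con-8, con-10, eas and con-13, one bar per library, with cac-1 suz-12 at the left and cac-1 at the right. The con-6 segment takes 45.0% to 59.3% of the bar in the double knockout and 8.26% to 14.4% in the single knockout, and con-13 is too small to see.

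The order of the libraries within a strain was partly shared across the conidiation genes, more so in the cac-1 knockout. In the cac-1 knockout replicate 2 was the lowest library for 9 of the 11 genes, against 35.0% of all genes tested, and replicate 3 the highest for 7 of the 11, against 34.2%. In the double knockout replicate 2 was the lowest for 7 of the 11, against 35.3% of all genes tested. The highest library of that strain was mixed. It was replicate 1 for 5, replicate 2 for 2 and replicate 3 for 4 of the 11, against 27.7%, 35.1% and 37.2%. There con-6 fell from replicate 1 to replicate 3, while con-10 rose. Leaving out single-knockout replicate 2 added con-10 to the calls, leaving out replicate 3 added csp-2, and leaving out double-knockout replicate 2 added eas, while con-6 and con-8 were called in each of the 6 fits that left out 1 library.

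The members lay on 6 linkage groups. None overlapped another gene of the table, and con-10 and con-13 were neighbours on the same strand, 1723 bp apart. Only con-6 lay within 200 kb of the end of a linkage group, at 68.0 kb. The right end was taken as the end of the last annotated gene. Its nearest gene to the left, NCU08770, rose with it, with 7.87 CPM in the double and 2.44 CPM in the single knockout (log2 fold change 1.68, SE 0.267, edgeR adjusted p = 1.69e-04). To the right NCU08768, which ends 278 bp away on the opposite strand, rose by 0.71 on the log2 scale (edgeR adjusted p = 0.00331), and as the use of strand in counting is not given, reads of such close genes may be shared. Of the 9 tested genes within 20 kb of con-6, 6 were called higher, against 16.1% of all genes tested. At 50 kb 17 of 25 were called higher, and genes as near to other linkage group ends were not compared.

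Around con-8 calls went both ways. Its nearest gene to the left, NCU09236, lies 1774 bp away on the same strand and fell by 2.09 on the log2 scale (SE 0.207, edgeR adjusted p = 1.03e-06), with 6.32 CPM in the double and 27.1 CPM in the single knockout. Of the 11 tested genes within 20 kb, 2 were called lower and 2 higher, against 11.9% and 16.1% of all genes tested. The windows around con-6 and con-8 were drawn after the values were seen.

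**Figure D4:**
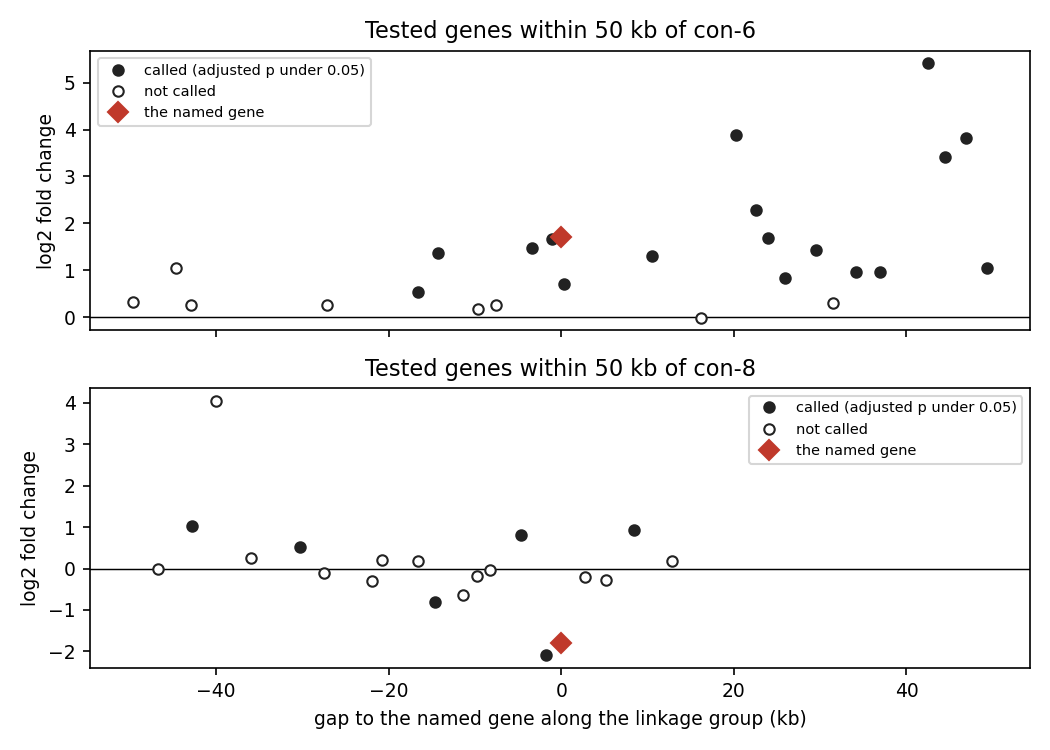
Log2 fold change of the double over the single knockout for each tested gene within 50 kb of con-6 (top) and con-8 (bottom), by its gap to the named gene in kb along the linkage group. Filled points were called at an adjusted p under 0.05. Around con-6, 17 of 25 neighbours were called, all higher. Next to con-8 a single close gene, NCU09236, fell with it.

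Signalling genes that act on conidiation were called at shares near or below those of all genes. Of 30 listed signalling genes 27 were found and tested, of which 4 were called higher and 1 lower, against 16.1% higher and 11.9% lower among all genes tested. On library totals 2 were called higher and 3 lower, and 2 were called higher without double-knockout replicate 1 or single-knockout replicate 1. The called genes were the G protein alpha subunits gna-3 and gna-2, the small GTPase gene ras-1 (in the table as bd), the photoreceptor partner wc-2 and the light-adaptation photoreceptor vvd. Loss of gna-3 is known to derepress conidiation in submerged culture. It had 33.3 ± 6.38 CPM in the double and 12.8 ± 0.789 CPM in the single knockout (SD, n = 3 each), and its log2 fold change was 1.39 (edgeR adjusted p = 1.77e-05). The log2 fold changes of gna-2, ras-1 and wc-2 were 0.60, 0.84 and 0.55 (edgeR adjusted p = 0.0278, 0.00137 and 0.0178). The gene vvd fell to 219 ± 17.9 CPM in the double knockout, against 439 ± 56.2 CPM in the single knockout (SD, n = 3 each), and its log2 fold change was -1.002 (edgeR adjusted p = 1.46e-04). Adenylate cyclase (cr-1) and the corepressor gene rco-1 were not called, with log2 fold changes of 0.057 and 0.030.

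Carotenoids give conidia their colour. Of 5 carotenoid genes 1 was called lower and 1 higher, which at this number is near the shares over all genes tested (11.9% and 16.1%). The phytoene dehydrogenase gene al-1 was called lower (log2 fold change -1.24, edgeR adjusted p = 8.42e-04) and the carotenoid oxygenase gene cao-2 higher (0.58, edgeR adjusted p = 0.0297). The call of cao-2 was lost on library totals, with upper-quartile factors and without replicate 1 or 2 of either strain. Of the 11 clock-controlled ccg genes other than eas, 6 were called higher and 1 lower, against 16.1% and 11.9% of all genes tested, and 3 were called higher without single-knockout replicate 2. The log2 fold changes of the higher ones were 0.58 for ccg-12 (in the table as cmt), 0.63 for ccg-16 and 0.73 for ccg-14. They were 1.02 for ccg-1, 1.10 for ccg-13 and 4.14 for the pheromone precursor gene ccg-4. Of these, ccg-4 was scarce in the single knockout (0.42 CPM, against 7.42 CPM in the double knockout) and is also in the sexual tissue list below. The part of the mating-type difference in its level was not tested. With at least 10 counts required in every library, 5 ccg genes were called higher. The gene ccg-9, a trehalose synthase gene, changed by -1.21 (edgeR adjusted p = 6.35e-05). Of 10 genes of sexual tissue, 2 were called higher (ccg-4 and the pheromone receptor gene pre-1) and 2 lower (poi-2 and sub-1). These are near the shares of 16.1% and 11.9% over all genes tested, and the list median was 0.087. Like ccg-4, pre-1 was scarce in the single knockout, at 0.73 CPM against 3.38 CPM in the double knockout. For pre-1, too, the part of the mating-type difference in its level was not tested. With at least 10 counts required in every library, 0 genes of this list were called higher. The summed level of the list was 1086 to 1817 CPM in the double and 1558 to 3034 CPM in the single knockout. This sum was carried mostly by asd-1, whose strains overlapped (log2 fold change -0.61, edgeR adjusted p = 0.108), and its part in the results was not tested.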

How the data were processed

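The table deposited by the authors holds raw counts per gene, and per the file headers each column comes from one alignment file, so replicates were not pooled. The submitters' processing notes name Trim Galore 0.6.10, STAR 2.7.11, SAMtools 1.21, Subread 2.0.6 with featureCounts, and deepTools 3.5.5; the genome build and the use of strand are not given in the sources used here. The gene length given by the authors is a multiple of 3 for 98.8% of genes, so it is a coding length. Of the values from 1 to 20, 80.9% are even, so single counts may not equal single fragments. The table held 36 further columns of counts without a matching sample label, which were left aside. Every row had a gene identifier.

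Columns were assigned by library name, strain and replicate number. Counts were tested with edgeR 4.0.16 in R 4.3.3 (filterByExpr at its defaults, which kept 9148 genes, TMM scaling, robust quasi-likelihood fit, no replicate block), with P-values adjusted over all genes tested. The standard error is the log2 fold change divided by the square root of F. The test was checked on simulated counts in which every gene had the same spread. That check covers the running of the test and not the calls reported here. Linkage groups and locus numbers come from the RefSeq table of assembly NC12, which matched 9723 of 9757 identifiers; coordinates are those of the deposited table. Intervals from low counts cover counting error and replicate spread only as the fit estimates them. Alternatives were other scalings and filters, DESeq2 1.42.0, non-robust estimation, a replicate block, thinned or halved counts, and fits without the 20 most abundant genes or without each library in turn. All members are named; of the other lists the called genes are named, at most 8 a list. Some listed genes are also expressed in ordinary mycelium. Members and lists were chosen with earlier results of these data known. Sequences and promoter motifs were not used here.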

Additional observations from a re-analysis of the deposited data

How the results depend on the processing

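The calls of con-6 and con-8 held in every alternative run. The number of members called lower was 1 in the main fit, 2 with upper-quartile factors, DESeq2 or non-robust estimation, 3 on library totals, and 1 to 2 with one library left out; members called higher were 1, or 1 to 2 with one library left out. Without single-knockout replicate 3 the second higher call was csp-2. All genes called lower numbered 1861 on library totals, a scaling that put the all-gene median at -0.20 and by which 35.8% of calls were higher against 57.5% with TMM, and 650 to 1139 with one library left out, lowest without double-knockout replicate 1 and 695 without replicate 3. The median log2 fold change of the spore products ran from -0.96 (without single-knockout replicate 2) to -0.49 with one library left out. Of 172 values for single members, 152 kept direction and side of the threshold, 10 passed it newly (con-10, eas and csp-2) and 10 reversed, all for genes that were not called. The reversed values were -0.018 for acon-2 and -0.077 for rca-1 on library totals and -0.027 for acon-2 on thinned counts; with one library left out csp-1 ran from -0.22 to 0.094, acon-2 from -0.20 to 0.43, con-13 from -0.79 to 0.26 and rca-1 from -0.097 to 0.35. The cause was not tested. The replicate block gave 3 members called lower (con-8, con-10 and eas). Deviations of same-numbered libraries correlated at -0.016, 0.14 and 0.21. For double-knockout replicates 2 and 3 the same number gave the highest correlation, while replicate 1 correlated best with single-knockout replicate 2 (0.13). These values do not decide whether the numbers pair the libraries. The block was left out of the main fit because the labels give no shared culture or day. Genes called higher near con-6 numbered 3 within 10 kb, and those called lower near con-8 were 1 without double-knockout replicate 3 or single-knockout replicate 2. At the depth of these libraries con-13 had 2 to 26 counts, and the direction of its change was not detectable.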
